A study of Homo sapiens with 7 samples.

Results

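The nucleosomes described here are the 9648 nucleosome positions of HepG2 cells, a human liver cancer cell line, that carried a peak of H3K9ac and no peak of any of the other 4 histone marks mapped. They were found by the identifier that each peak shares with a native nucleosome position, and they were 12.6% of the 76681 positions with H3K9ac (95% interval 12.3 to 12.8), 4.73% of the 203848 positions with any mark and 1 in 1474 of all 14217405 positions. The series holds 7 samples of HepG2, whose labels name no treatment. They are native MNase-Seq, which reads the DNA that nucleosomes protect from micrococcal nuclease in chromatin without crosslinking, ChIP-Seq from crosslinked chromatin, with antibodies against H3K9ac, 2 more activation marks (H3K4me3, H3K27ac) and 2 repressive ones (H3K27me3, H3K9me3), and RNA-Seq. Each assay had 1 sample, so there were no groups of samples, no replicate error and no test, and the intervals given are exact binomial (Clopper-Pearson) 95% intervals that cover counting error only. The peak lists hold coordinates without read counts, so the depth behind a position is unknown. A mark that was absent, one that fell short of the peak calling limits and one that the authors' filter on peak shape removed cannot be told apart. Positions with any mark were 1.43% of all positions in these lists. The paper reports a higher share of nucleosomes with histone modification, and the reason for the difference was not tested. Whether a position counted as H3K9ac only, or as having no marked position nearby, depends on how complete these lists are. The liver markers of the RNA-Seq sample were high, with ALB (albumin) at 10011 FPKM and AFP (alpha-fetoprotein) at 3798 FPKM as means of its 2 columns, and the 8 markers of blood, endothelial, mesenchymal, heart and glial cells lay between 0 and 0.287 FPKM.

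H3K9ac is acetylation of lysine 9 on the tail of histone H3. It is placed mainly by the acetyltransferases KAT2A and KAT2B, which work within the SAGA and ATAC complexes, it is removed by histone deacetylases, and it is bound by proteins with bromodomains or YEATS domains. H3K27ac is placed by EP300 and CREBBP and marks active enhancers and promoters, whereas H3K4me3 is placed by SET1 and MLL complexes at active promoters. The 3 activation marks usually occur together around the transcription start sites (TSS) of active genes. A position with all 3 of them is called trivalent, or "T", below.

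The DNA under such positions was read for promoters where an H3K9ac-only position was the single marked nucleosome within 2 kb of the TSS and lay over the promoter window. There were 12 such genes, and for 4 of them RefSeq (GRCh38.p14) held a promoter of a gene whose listed length differed by at most 50 bp, so that the start was taken to be the same. These genes were chosen after their values were seen. They are LCE1E (a late cornified envelope protein, chr1:152786007-152786276, plus strand), MMP7 (the matrix metalloproteinase matrilysin, chr11:102530728-102530997, minus strand), CCDC60 (a coiled-coil protein, chr12:119334479-119334748, plus strand) and TLR5 (the flagellin receptor, chr1:223143229-223143498, minus strand). Each sequence is given 5′ to 3′ on the strand of the gene, from 250 bases before the start to 20 bases after it, and the capitals mark the part under the 140 bp of the H3K9ac-only position. The capitals may be shifted where lengths differed, by 21 bp for LCE1E, 24 bp for CCDC60 and 32 bp for TLR5. The MMP7 position runs past the end of its printed sequence.
LCE1E: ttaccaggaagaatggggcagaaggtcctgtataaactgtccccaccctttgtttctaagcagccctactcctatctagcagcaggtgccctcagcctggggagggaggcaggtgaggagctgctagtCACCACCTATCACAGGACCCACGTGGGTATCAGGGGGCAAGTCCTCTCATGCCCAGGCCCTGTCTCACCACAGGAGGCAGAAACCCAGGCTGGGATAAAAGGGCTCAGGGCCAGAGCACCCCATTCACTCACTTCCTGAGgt
MMP7: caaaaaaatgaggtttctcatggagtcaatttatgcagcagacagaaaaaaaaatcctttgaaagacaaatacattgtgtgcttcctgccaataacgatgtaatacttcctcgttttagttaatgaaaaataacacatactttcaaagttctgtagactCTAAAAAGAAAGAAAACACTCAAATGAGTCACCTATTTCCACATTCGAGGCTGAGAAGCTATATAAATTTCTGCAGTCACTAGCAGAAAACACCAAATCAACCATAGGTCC
CCDC60: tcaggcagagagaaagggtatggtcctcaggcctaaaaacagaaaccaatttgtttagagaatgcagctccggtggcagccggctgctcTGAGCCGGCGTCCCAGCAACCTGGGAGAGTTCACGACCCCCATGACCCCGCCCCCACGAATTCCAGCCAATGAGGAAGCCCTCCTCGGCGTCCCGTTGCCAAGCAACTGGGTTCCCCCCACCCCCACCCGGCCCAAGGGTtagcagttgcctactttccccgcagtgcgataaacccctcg
TLR5: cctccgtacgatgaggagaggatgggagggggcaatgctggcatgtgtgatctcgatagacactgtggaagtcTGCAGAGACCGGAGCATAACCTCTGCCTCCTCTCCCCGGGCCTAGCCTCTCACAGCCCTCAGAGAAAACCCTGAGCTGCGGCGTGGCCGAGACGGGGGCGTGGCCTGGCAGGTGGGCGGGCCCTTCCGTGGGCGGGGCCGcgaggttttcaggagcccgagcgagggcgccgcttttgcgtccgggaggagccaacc
The positions were centred at -52, -21, -91 and -107 bp from the TSS, in this order, so each reached to or near the start. The MMP7 stretch held 3 CG dinucleotides in 270 bases and the LCE1E stretch 1, while the CCDC60 stretch held 14 and the TLR5 stretch 21, of which 9 and 11 lay under the H3K9ac-only position. The mean expression of these 4 genes was low, at 0.354 FPKM for LCE1E, 0.106 for MMP7, 0.0328 for CCDC60 and 0.0135 for TLR5, and no other marked position lay within 10 kb of any of the 4 starts. In these examples, H3K9ac-only positions occurred at starts with many CG dinucleotides and at starts with few.

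H3K9ac was most often alone away from promoters. Within 2 kb of a TSS, H3K9ac-only positions were 5.23% of the 27607 positions with H3K9ac (95% interval 4.97 to 5.50), whereas from 2 to 10 kb they were 15.1% of 6716 (14.3 to 16.0), from 10 to 1000 kb 17.0% of 41965 (16.6 to 17.3), and beyond 1000 kb 18.6% of 393 (14.9 to 22.8). Their density over all nucleosomes still fell with distance, from 0.591% of positions within 2 kb to 0.105%, 0.0572% and 0.0129%. H3K9ac-only positions were thus densest at promoters, but there they were a small part of the acetylated nucleosomes.

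Of the 9648 H3K9ac-only positions, 1445 lay within 2 kb of a TSS (15.0%, 95% interval 14.3 to 15.7), 1015 lay 2 to 10 kb away, 7115 lay 10 to 1000 kb away and 73 lay farther. The genes counted here are the 13289 that have coordinates of their own, and counting every named locus raised the share near a TSS to 20.9%, and either end of any listed locus to 25.7%. Of all nucleosomes, 2.56% lay within 2 kb of any named TSS and 5.13% within 2 kb of either end of any listed locus. By the main count, 43.3% of H3K4me3/H3K9ac positions and 43.4% of trivalent positions lay within 2 kb of a TSS, against 9.94% of H3K9ac/H3K27ac positions, 3.54% of H3K27ac-only positions and 1.72% of all nucleosomes. By this share, H3K9ac-only positions lay between the classes with H3K4me3 (37.7% for H3K4me3-only positions) and those with H3K27ac but no H3K4me3. Like the latter, most of them (73.7%) lay 10 to 1000 kb from a TSS. Their median distance to the nearest TSS was 36952 bp (quartiles 9632 and 104908 bp), compared with 7107 bp for H3K4me3/H3K9ac and 47002 bp for H3K9ac/H3K27ac.

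H3K9ac-only positions were more often isolated than the positions of the 5 other classes examined. No other marked position of any kind lay within 2 kb of 4148 of them (43.0%, 95% interval 42.0 to 44.0). The same held for 12.1% of H3K27ac-only positions, 6.03% of H3K4me3-only positions, 3.66% of H3K9ac/H3K27ac positions, 2.45% of H3K4me3/H3K9ac positions and 0.526% of trivalent positions. At the level of adjacent positions in the list, which can overlap, 5435 H3K9ac-only positions (56.3%) had no marked neighbour on either side, 3492 (36.2%) had 1 and 721 (7.47%) had 2. Both neighbours were marked for 75.8% of trivalent positions, 54.4% of H3K4me3/H3K9ac positions and 47.5% of H3K9ac/H3K27ac positions. None of these shares was tested across samples, since there was 1 library per mark.

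**Figure D1:**
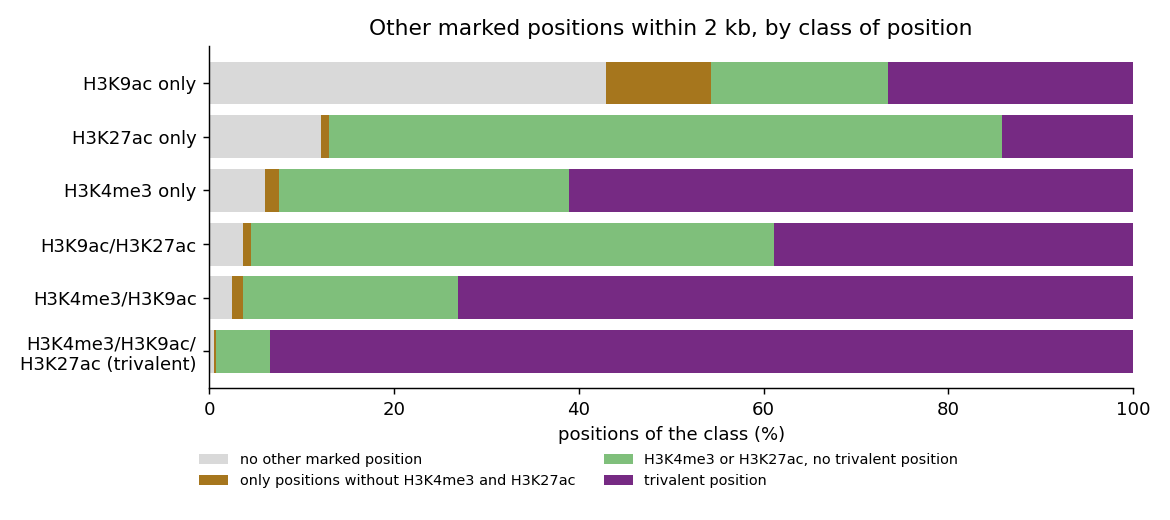
Share of positions (x axis, %) of 6 classes (y axis) by the other marked positions within 2 kb of them, as stacked bars that add up to 100%. No other marked position (grey) made up 43.0% of the H3K9ac-only bar and 12.1% or less of the others; a neighbour of the same class counts in the green segment for the classes that carry H3K4me3 or H3K27ac without being trivalent, so only the grey segments compare like with like.

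The distances to the nearest other marked position covered a wide range. The nearest one lay within 250 bp, about the distance of an adjacent nucleosome, for 3604 H3K9ac-only positions (37.4%). It lay between 1 and 2 kb away for 341 (3.53%) and between 10 and 50 kb away for 1966 (20.4%). For 28 positions it lay over 100 kb away, and the farthest was 276243 bp from any other mark. The median was 610 bp with quartiles of 180 and 8703 bp, against medians of 165 to 187 bp in the other 5 classes. The median distance to the nearest trivalent position was 21398 bp, against 412 bp for H3K4me3/H3K9ac, 700 bp for H3K4me3-only and 10396 bp for H3K9ac/H3K27ac. H3K27ac-only positions lay farther from one, at 30410 bp.

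**Figure D2:**
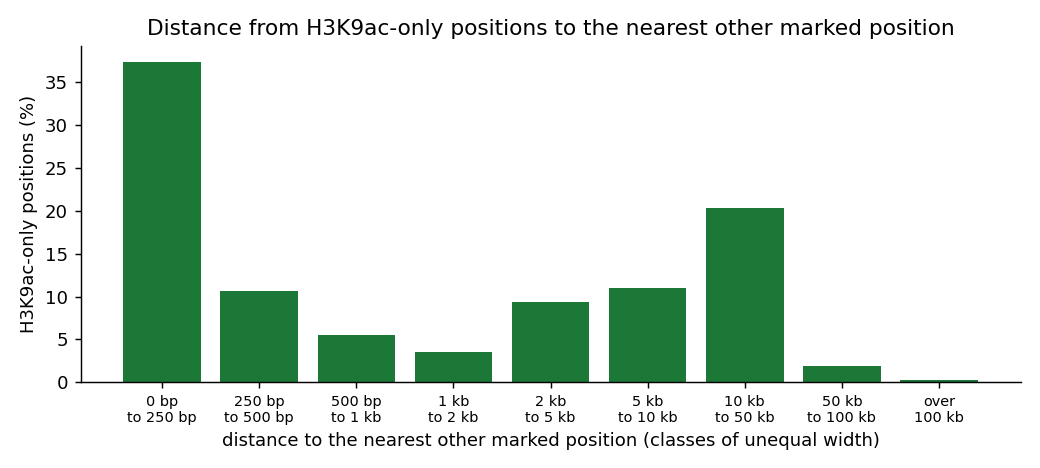
Distance from each H3K9ac-only position to the nearest other marked position (x axis, in classes of unequal width) and the share of the 9648 positions in each class (y axis, %). The tallest bars are those at 250 bp or less (37.4%) and from 10 to 50 kb (20.4%), with 3.53% from 1 to 2 kb, and the width of the classes grows to the right.

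By what lay within 2 kb, the H3K9ac-only positions fell into 5 settings. After the 4148 isolated positions, the largest setting was that of 2565 positions (26.6%) near at least 1 trivalent position, followed by 1840 (19.1%) near H3K4me3 or H3K27ac but no trivalent position, 714 (7.40%) near other H3K9ac-only positions and nothing else, and 381 (3.95%) near H3K27me3 or H3K9me3 with no activation mark but H3K9ac. The settings differed in where they lay. Part of this follows from their definition, since 43.4% of trivalent positions were themselves within 2 kb of a TSS. Of those near a trivalent position 41.4% were within 2 kb of a TSS, and of those near H3K4me3 or H3K27ac 12.9% were, while the share was 2.29% of the isolated positions, 4.90% of those near only their own kind and 4.46% of those near a repressive mark. Counting either end of any listed locus, named or not, 7.71% of the isolated positions were within 2 kb of one, against 61.9% of those near a trivalent position. Of all nucleosomes, 5.13% were within 2 kb of such an end and 1.72% within 2 kb of a TSS. The isolated positions were above both backgrounds (95% intervals 6.92 to 8.57 and 1.86 to 2.79), but far closer to them than positions near a trivalent one. Among the 1840 positions near H3K4me3 or H3K27ac, 908 had H3K4me3 without H3K27ac nearby, 788 had H3K27ac without H3K4me3 and 144 had both.

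The marks on directly adjacent positions of the list show which combinations H3K9ac-only positions bordered on. Of 4934 marked neighbours, 27.9% were themselves H3K9ac only, 22.2% were trivalent, 19.0% carried H3K4me3/H3K9ac, 11.6% H3K4me3, 8.39% H3K9ac/H3K27ac and 6.71% H3K27ac. A neighbour with H3K9ac, in any combination, was found for 35.6% of the H3K9ac-only positions, one with H3K4me3 for 25.5%, one with H3K27ac for 18.0% and one with H3K27me3 or H3K9me3 for 1.40%. A trivalent neighbour was found for 10.8%, but only 49 positions (0.508%) had trivalent nucleosomes on both sides. The H3K9ac-only positions next to trivalent ones thus nearly always bordered them on 1 side.

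Around the TSS, H3K9ac-only positions were on either side of the trivalent nucleosomes. In windows of 200 bp, their share of all positions was 1.01% from -600 to -400 bp, dropped to 0.531% and 0.527% in the 2 windows from the TSS to +400 bp, and rose again to 1.18% from +800 to +1000 bp. The trivalent share peaked in the gap between these maxima, at 27.3% from +200 to +400 bp, and H3K4me3/H3K9ac peaked at 8.73% from +600 to +800 bp. H3K9ac/H3K27ac, in contrast, had its maximum upstream, at 0.785% from -400 to -200 bp. The shape was not particular to H3K9ac-only positions. H3K4me3-only positions also had a maximum on either side, at 6.28% from -200 to 0 bp and 8.53% from +800 to +1000 bp. Between these they fell to 4.78% from +200 to +400 bp. The classes exclude each other, so a high trivalent share leaves fewer positions for the other classes. Downstream of the TSS lay 60.5% of the 1445 H3K9ac-only positions within 2 kb (95% interval 57.9 to 63.0). The share was higher for trivalent (80.3%), H3K4me3/H3K9ac (79.4%) and H3K4me3-only positions (72.5%). It was lower for H3K9ac/H3K27ac (41.5%) and H3K27ac-only positions (37.0%). Of all nucleosomes in these windows 50.3% lay downstream. Within 1 kb of the TSS the share of H3K9ac-only positions downstream was 50.2%.

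**Figure D3:**
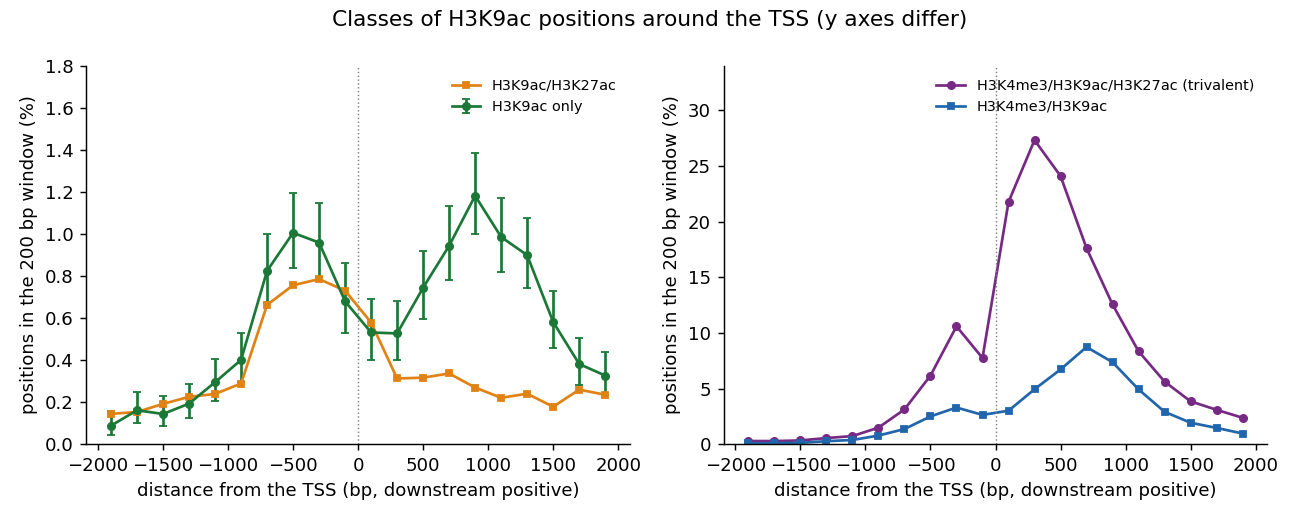
Share of nucleosome positions (y axes, %, on different scales) in 200 bp windows by distance from the TSS (x axes, bp) that were H3K9ac only or H3K9ac/H3K27ac (left) and trivalent or H3K4me3/H3K9ac (right), over the 13289 genes; bars on the H3K9ac-only points are 95% binomial intervals for counting error. H3K9ac only has a maximum on either side of the TSS (1.01% and 1.18%) and is at 0.527% where the trivalent share is highest (27.3%).

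Gene by gene, most H3K9ac-only positions lay outside the span of the trivalent positions, but so did most positions of any kind. At genes with at least 1 trivalent position within 2 kb, 1055 H3K9ac-only positions were counted, of which 473 (44.8%) lay upstream of the first trivalent position, 552 (52.3%) lay downstream of the last and 30 (2.84%, 95% interval 1.93 to 4.03) lay in between. The share in between was 6.19% for H3K4me3-only positions, 8.63% for H3K27ac-only, 8.86% for H3K4me3/H3K9ac and 13.2% for H3K9ac/H3K27ac positions. It was lower for unmarked positions, at 1.02%, and the median trivalent span was 585 bp. A single trivalent position spans no other, and at the 4643 genes with 2 or more the share in between was 3.48% of 863 H3K9ac-only positions (2.36 to 4.93), against 1.25% of unmarked positions and 7.78% to 15.1% in the other 4 classes. Outside promoters the picture was alike. Of 1065 H3K9ac-only positions that lay more than 2 kb from any named TSS and had a trivalent position within 2 kb, 40 (3.76%, 95% interval 2.70 to 5.08) had trivalent positions on both sides, against 11.7% of H3K4me3/H3K9ac, 10.6% of H3K9ac/H3K27ac and 4.56% of H3K27ac-only positions, the last of which the interval of the H3K9ac-only share includes.

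Inside genes and more than 2 kb from any named TSS, H3K9ac-only positions differed less between expressed and silent genes than the other H3K9ac classes did. They were 0.0677% of nucleosomes within expressed genes (FPKM of at least 1, mean of both RNA-Seq columns), 0.0345% within silent genes (FPKM under 0.1) and 0.0555% outside the genes of the set. Trivalent positions were 0.176% in expressed and 0.00700% in silent genes, H3K9ac/H3K27ac positions 0.0896% and 0.0119%, and H3K4me3/H3K9ac positions 0.0494% and 0.0129%. H3K9ac-only positions were therefore the most common of the 4 H3K9ac classes in the bodies of silent genes, with 533 positions against 199 of H3K4me3/H3K9ac, 184 of H3K9ac/H3K27ac and 108 trivalent. Among classes without H3K9ac, H3K4me3-only positions were 0.0930% in expressed and 0.0313% in silent genes (483 positions). H3K27ac-only positions were 0.602% and 0.0706% (1090 positions), so they were more common in silent genes than H3K9ac-only ones. The isolated H3K9ac-only positions alone were 0.0373% of nucleosomes in expressed and 0.0227% in silent genes. Regions outside the gene set also include loci that were left out of it.

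Genes with an H3K9ac-only position near the start were mostly expressed. Of the 13289 genes, 1308 had at least 1 within 2 kb of the TSS, and 1027 of these (78.5%, 95% interval 76.2 to 80.7) were expressed, where the background over all genes of the set was 47.6%. Their median expression was 7.27 FPKM, with quartiles of 1.63 and 19.6. A trivalent position was lacking within 2 kb at 328 of the 1308 genes (25.1%), against 57.1% of all genes. Most of the 1308 genes, 1112, had 1 such position, 170 had 2 and 26 had 3 or more.

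Read beside the trivalent positions, the expressed share differed mainly where these were missing. Among genes with a trivalent position, 92.7% of the 980 with an H3K9ac-only position and 94.5% of the 4717 without one were expressed, with median values of 10.9 and 12.7 FPKM. Among genes with no trivalent position, 119 of 328 genes with an H3K9ac-only position were expressed (36.3%, 95% interval 31.1 to 41.7), against 846 of 7264 genes without one (11.6%, 10.9 to 12.4). With every named locus counted, the shares were 42.9% and 24.3%. The difference narrowed with the other marks taken into account. Where H3K4me3 or H3K27ac but no trivalent position was within 2 kb, 50.2% of 201 genes with and 30.9% of 1448 genes without an H3K9ac-only position were expressed. Where H3K4me3 and H3K27ac were both missing, 18 of 127 genes with an H3K9ac-only position were expressed (14.2%, 8.62 to 21.5), against 6.86% of 5816 without one. H3K9ac-only positions were the sole marked positions at 109 genes, of which 14 were expressed (12.8%, 7.20 to 20.6), and of the 4799 genes with no marked position 7.63% were, a value that lies inside that interval. A cause of these differences was not tested, and genes are not replicates.

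The share of genes with an H3K9ac-only position depended little on how many trivalent positions a gene had, once there was 1. It was 4.32% of 7592 genes with none, 18.4% of 887 genes with 1, 17.5% of 1214 genes with 3 and 14.1% of 206 genes with 8.

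**Figure D4:**
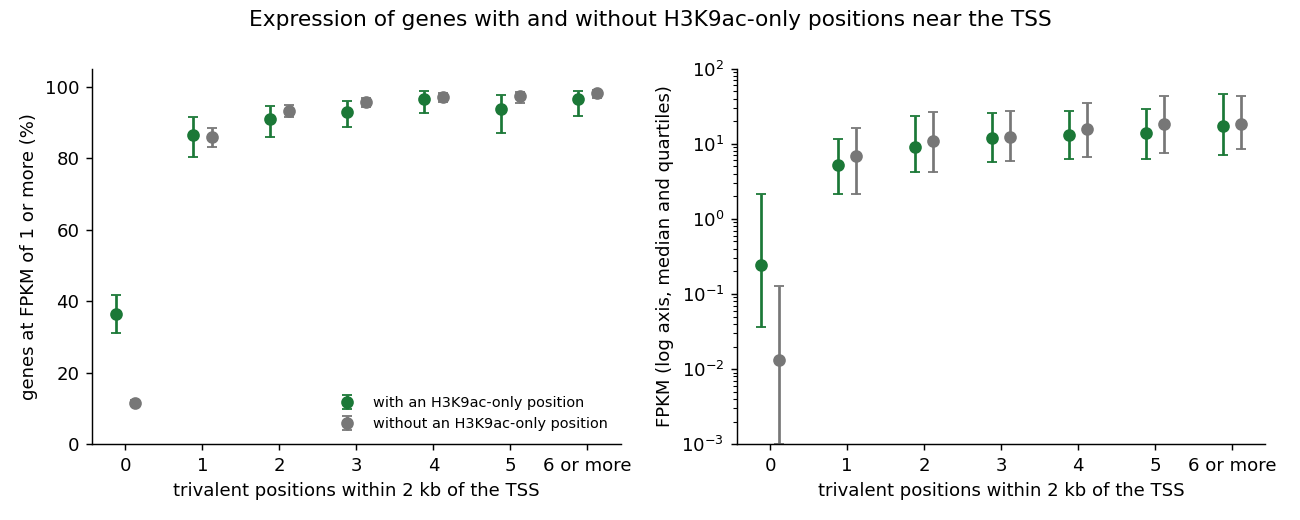
Share of expressed genes, at 1 FPKM or above (left, y axis, %, with 95% binomial intervals) and FPKM (right, y axis, log scale, median with quartiles, where a lower quartile of 0 reaches the bottom of the axis) by the number of trivalent positions within 2 kb of the TSS (x axes), for genes with (green) and without (grey) an H3K9ac-only position there. At 0 trivalent positions 36.3% and 11.6% of genes were expressed; at 1 trivalent position 86.5% and 85.9% were.

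Of the 26 genes with 3 or more H3K9ac-only positions within 2 kb of the TSS, 18 were expressed (69.2%, 95% interval 48.2 to 85.7), with a median of 1.89 FPKM. The 3 genes with more than 3 come first below, and of those with 3 the 7 of highest expression follow, so that their expression was fixed by the choice. CDHR5, a cadherin-related protein of the intestinal and renal brush border, had 5, centred at -903, -448, -248, -53 and +89 bp, together with 1 H3K9ac/H3K27ac and 1 H3K4me3 position but no trivalent one, and its expression was 1.06 and 1.08 FPKM in the 2 columns. SCT, the gene of the hormone secretin, lies next to it and was counted with 4 of the same positions, at +1092 to +1942 bp, and had 0.178 and 0.214 FPKM. LOC200772 had 4, of which those at -1723 and -1438 bp were upstream and those at +1227 and +1337 bp were downstream of its 2 trivalent positions.

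These 7 genes had trivalent positions as well, and the places of both are given side by side. In XRCC5, the Ku80 subunit of the complex that binds broken DNA ends (174 FPKM), they were centred at +699, +1094 and +1299 bp, downstream of a single trivalent position at +419 bp. In MYEOV2 (94.9 FPKM) they stood at +1033, +1418 and +1553 bp, and the trivalent positions at +181 to +543 bp. GLRX3, a glutaredoxin that handles iron-sulfur clusters (76.5 FPKM), had the opposite order, with H3K9ac-only positions at -669, -509 and -332 bp and 6 trivalent positions from -162 to +781 bp. CDIPT, the phosphatidylinositol synthase (34.2 FPKM), also had its 3 upstream, at -1020, -900 and -787 bp, and its 2 trivalent positions at +330 and +490 bp. LMAN2L, a lectin that carries glycoproteins out of the endoplasmic reticulum (25.7 FPKM), had 3 at +562, +702 and +817 bp behind trivalent positions at +152 and +317 bp, and C2orf18 (13.0 FPKM) had 3 from +734 to +1274 bp behind trivalent positions that ended at +624 bp. RPL22L1, a paralog of a ribosomal protein (15.7 FPKM), had 1 of its 3 positions, at +1009 bp, within the trivalent span of +124 to +1304 bp, and the others, at +1494 and +1804 bp, beyond it.

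In the 5 most highly expressed genes with an H3K9ac-only position, it lay outside the span of the trivalent positions, where most unmarked positions also lay. RPL37A, a protein of the large ribosomal subunit, had 2929 and 3134 FPKM and 7 trivalent positions from +271 to +1516 bp, and its H3K9ac-only position at +136 bp came directly before them. RPS13 (1126 FPKM), of the small subunit, had 7 trivalent positions that ended at +1129 bp and an H3K9ac-only position at +1474 bp, and ACTB, which encodes beta-actin (766 FPKM), had 6 that ended at +973 bp and an H3K9ac-only position at +1411 bp. RPL11 (928 FPKM) had 1 on either side of its 4 trivalent positions, at -60 and +1520 bp. CST3, the secreted protease inhibitor cystatin C (595 FPKM), had 2 farther downstream, at +1574 and +1794 bp, while its 2 trivalent positions were at +209 and +492 bp.

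Of the 14 expressed genes with no other mark than H3K9ac alone within 2 kb, the 5 with the highest expression were ENSA, UBTF, ARHGEF10L, C10orf11 and LY96. ENSA, an inhibitor of the phosphatase PP2A (89.3 and 90.8 FPKM), had 1 H3K9ac-only position at +1419 bp, and 7 marked positions including 2 trivalent ones lay within 10 kb of its listed start. UBTF, a transcription factor of RNA polymerase I (16.5 and 15.8 FPKM), had 1 at +1530 bp, with 10 marked positions within 10 kb, 3 of them trivalent. Whether the listed start is the one in use was not tested. ARHGEF10L (13.4 and 14.1 FPKM), had its only marked position within 10 kb at +123 bp. C10orf11 (12.6 and 10.4 FPKM) had 1 at -33 bp and 14 marked positions within 10 kb, and LY96, the co-receptor of TLR4 also known as MD-2 (4.21 and 2.95 FPKM), had 1 at -280 bp and 6 marked positions within 10 kb, with no trivalent position in either case.

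H3K9ac-only positions were also counted at genes that write, erase or read histone acetylation and at genes typical of the liver. Of all genes of the set 9.84%, and of the expressed genes 16.2%, had 1 or more within 2 kb. Of 4 acetyltransferases in the set, 1 had one, CREBBP at -849 bp (7.27 FPKM), which with EP300 is known mainly for H3K27. EP300 (11.2 FPKM) and the main H3K9 enzymes KAT2A (22.9 FPKM) and KAT2B (1.15 FPKM) had none. Of 6 erasers 2 had one, HDAC2 at -84 bp (29.9 FPKM) and HDAC3 at +667 bp (28.8 FPKM), both outside their trivalent spans, which ran from +666 to +1286 bp and from -1243 to +367 bp. None of 6 subunits of SAGA and ATAC and none of 4 readers had one. Of 18 genes of liver proteins, all of them expressed at a median of 648 FPKM, 2 had one. They were FGA, the fibrinogen alpha chain (211 FPKM), at +1755 bp, past 4 trivalent positions that ended at +1400 bp, and HP, which encodes haptoglobin (135 FPKM), at +298 bp, past a trivalent position at +128 bp. Of 6 hepatocyte transcription factors 2 had one, FOXA3 (14.1 FPKM) at +1578 bp and NR5A2 (0.336 FPKM, with no trivalent position) at +1510 bp. With so few genes, none of these counts can be read as higher or lower than the share over expressed genes.

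Most H3K9ac-only positions stood singly. Runs were counted over consecutive positions of the list, which can overlap and so need not be separate nucleosomes. In this count 8332 were single, 569 runs held 2, 54 runs held 3 and 4 runs held 4. Thus 13.6% of the positions (95% interval 13.0 to 14.3) were in a run of 2 or more. Runs of their own kind held 86.5% of trivalent positions, 61.0% of H3K27ac-only, 49.7% of H3K4me3-only, 45.9% of H3K9ac/H3K27ac and 45.6% of H3K4me3/H3K9ac positions.

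The 4 runs of 4 lay in different surroundings. The first, at chr1:55088901-55089396, lay inside the overlapping genes ACOT11, a fatty acyl-CoA thioesterase, and FAM151A, and no other marked position was within 5 kb of it. Within this run each position overlapped the next. The second, at chr3:45636496-45637233, was centred 541 bp downstream of the listed start of LIMD1, a LIM domain protein, and followed 4 trivalent positions and 1 with H3K4me3. The third, at chr11:625019-625696, is the one at the start of CDHR5 described above. The fourth, at chr14:24051396-24052111, lay at -3744 bp from the end listed as the start of AP1G2 and JPH4, which share coordinates in the table so that the start of each is uncertain, and within 5 kb of 7 H3K27ac-only positions and 1 with H3K9ac/H3K27ac. These coordinates are those of the deposited lists, for which the processing notes name hg19.

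**Figure D5:**
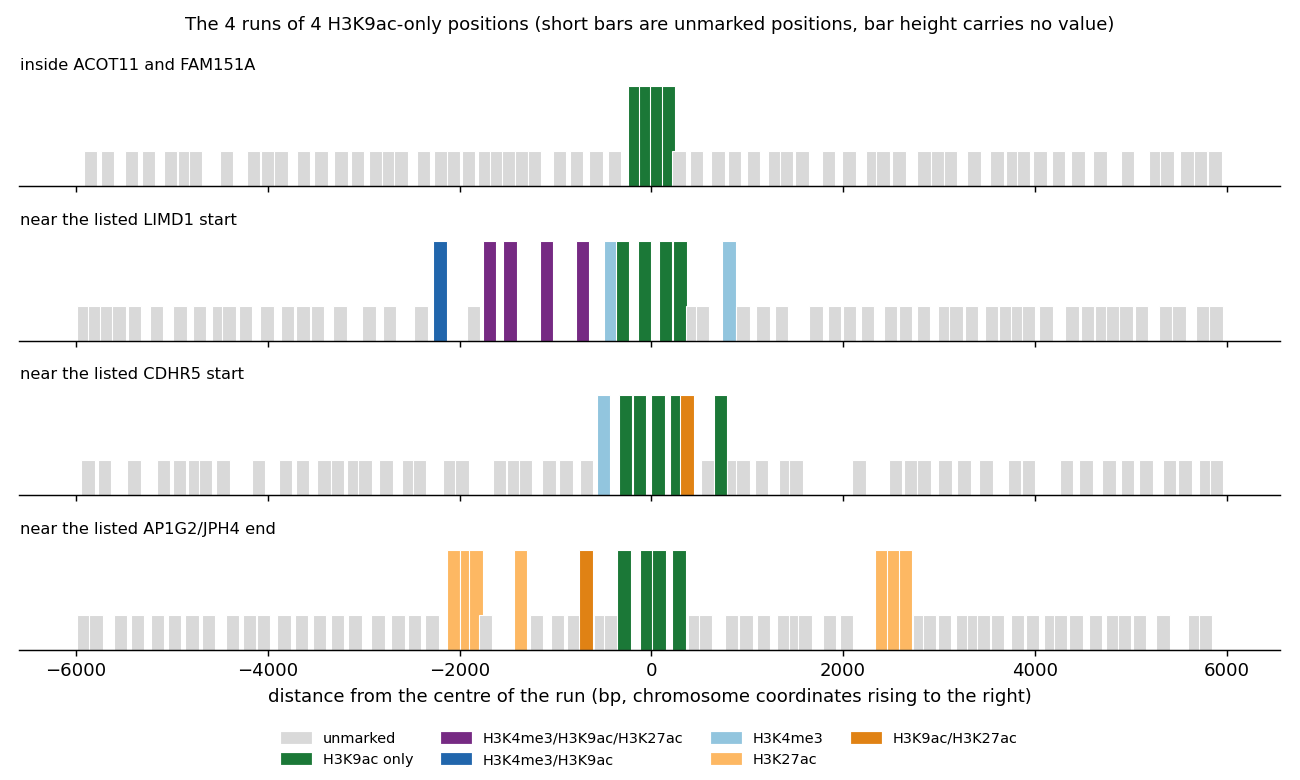
The 4 runs of 4 H3K9ac-only positions (green), each in a panel with all nucleosome positions within 6 kb by distance from the centre of the run (x axis, bp); tall bars are marked positions in the colours of the key, short grey bars are unmarked ones, and the height carries no value. The first run has no other marked position, the second follows 4 trivalent positions, the third has none of these, and the fourth lies among H3K27ac-only positions.

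The spacing of nucleosomes around H3K9ac-only positions was close to that of the genome. The median distance from their start to that of an adjacent nucleosome was 182 bp, against 180 bp for all positions and 210 bp for trivalent ones. The other classes were also near the genome, with 180 bp for H3K27ac-only, 185 bp for H3K9ac/H3K27ac, 190.5 bp for H3K4me3/H3K9ac and 192 bp for H3K4me3-only positions. Of the H3K9ac-only positions 36.8% (35.8 to 37.8) overlapped a neighbouring position, against 40.4% of all, 39.6% of H3K27ac-only and 24.6% of trivalent positions. A gap of over 400 bp on at least 1 side was found at 5.89% of them (5.43 to 6.38), against 5.11% of all positions, 14.0% of H3K4me3/H3K9ac, 11.2% of H3K9ac/H3K27ac and 26.7% of trivalent positions. Overlapping positions can share ChIP-Seq reads. For 8889 of the 9648 (92.1%), the span of the position overlapped no peak of another mark by even 1 bp.

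By chromosome, H3K9ac-only positions made up the largest share of nucleosomes on chromosomes 19 (0.163%), 22 (0.152%) and 17 (0.120%) and the smallest on Y (0.0206%, 11 positions) and X (0.0439%). As a share of H3K9ac positions they ranged from 7.60% on chromosome 20 (95% interval 6.53 to 8.78) to 17.3% on chromosome 18 (15.3 to 19.5), with chromosomes 19 (10.3%) and 17 (10.5%) near the lower end. Isolated positions were 28.7% of those on chromosome 19 and 50.7% of those on chromosome 18, with a lower value only on Y. The copy number of HepG2 chromosomes was not analysed here.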

How the data were processed

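Of HepG2, 1 sample per assay was measured by native MNase-Seq, ChIP-Seq of 5 marks and RNA-Seq. The authors ran DANPOS with its defaults to place nucleosomes. With NUCLIZE they then called a histone peak at a position with a minimum excess of reads, removed peaks of oblique or U shape, and kept those where ChIP exceeded input DNA and local background 4-fold or more, both P and FDR being no higher than 0.01; they deposited both as coordinates with an identifier, without counts. The authors deposited RNA-Seq as FPKM in 2 columns, whose nature (cultures or sequencing runs) is not stated; their mean was used. Columns of the authors' own comparison (fold change, p and q) were not used. The submitters' processing notes name the build hg19 and the tools BWA, Bowtie, TopHat2 2.1.0, HOMER 4.7 and edgeR. Coordinates were kept as listed, 140 bp per position with peaks 3 bp longer on either side; whether the first base counts as 0 or 1 is not stated.

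A position was H3K9ac only if its identifier was in the H3K9ac list and in no other list. Distances were taken between midpoints, and adjacent means next in the list on either side, so adjacent positions and those of a run can overlap. TSS came from loci of the FPKM table with strand inferred from locus numbering, and 8405 of 8435 genes (99.6%) matched to RefSeq by symbol and chromosome had the same strand. The gene set leaves out loci that share coordinates or symbols. Named genes were the 10 with the most H3K9ac-only positions within 2 kb (ties by FPKM), the 5 of highest FPKM with 1 or more, the 5 of highest FPKM whose marked positions are all H3K9ac only, and those at the longest runs; 5 runs were planned, and the 4 longest are given, since 54 tied for the next rank. The 5 farthest positions were only counted. Gene lists and members were chosen with earlier results of these data known. Shares have exact Clopper-Pearson 95% intervals; no test was run. Promoters of 270 bases came from RefSeq (GRCh38.p14). On simulated data, the counts of marked neighbours and of runs recovered what was planted. The counts of isolated, downstream, TSS-near and stricter members equalled direct counts there, with genes on the plus strand only. Other counting steps were not tested in this way. Alternatives were other windows, expression limits, gene sets, single FPKM columns, autosomes and stricter members; how they were planned or added is told with their effects. The software was scipy 1.17.1, pandas 2.3.3, numpy 2.4.6 and matplotlib 3.10.9 under Python 3.11.15.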

Additional observations from a re-analysis of the deposited data

How the results depend on the processing

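Of 48 alternatives to 12 results, 24 left the value within the 95% interval of the value reported, and 24 moved it outside, most of them by changing a window or a limit and so the quantity itself. With H3K9ac-only positions restricted to those overlapping no peak of another mark, 13.8% were within 2 kb of a TSS, 38.9% had a marked neighbour (43.7% as reported), 46.7% were isolated and the median distance to a trivalent position was 23733 bp. The share near a TSS was 9.60% at 1 kb, 19.4% at 5 kb and 20.9% with all named loci. Among nearest positions that do not overlap, 40.4% had a marked neighbour. The isolated share was 46.5% at 1 kb and 33.6% at 5 kb, and the share in runs was 14.7% when 1 unmarked position was allowed in a run. Of genes with an H3K9ac-only position, 89.2% were expressed at a limit of 0.1 and 59.6% at a limit of 5, 28.9% (1 kb) and 27.9% (5 kb) had no trivalent position, and the median among those at 0.1 FPKM or more was 9.23 FPKM. The share downstream was 57.7% for genes with no other TSS within 10 kb and 50.2% at 1 kb. The remaining alternatives were chosen after seeing the data. Among genes without a trivalent position, the expressed shares with and without an H3K9ac-only position were 36.3% and 11.6% as reported, 27.8% and 9.55% at 5 kb, 42.9% and 24.3% with all named loci, and 38.2% and 14.7% at 1 kb. The share between trivalent positions was 5.13% at 5 kb, and 3.48% at genes with 2 or more trivalent positions. The downstream share over genes with the RefSeq strand was also added later and stayed within its interval (59.1%). No paired analysis was possible because each assay had 1 sample and the labels give no replicate numbers. The planned CpG count per position was not run, since no hg19 sequence was used here. The lists give no reads per position, so no limit on detection at a single position can be given.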
